A study of Mus musculus with 12 samples.

Results

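The expression of 9 transcription factor genes of the lung mesenchyme was followed in RNA-seq of cells in which the transcription factor KLF4 was knocked down: the T-box genes Tbx2, Tbx3, Tbx4, Tbx5, Tbx15, Tbx18 and Tbx20, the basic helix-loop-helix gene Tcf21 and the zinc finger gene Gata6. They were taken by symbol, 1 row per gene, so the set holds 9 of the 52636 gene rows in each of the deposited tables. The 12 libraries form 4 groups of 3. Murine SMCs from the trachea (C57BL/6, bought from a supplier and labelled as a cell line, with no age given) and lung PDGFR-β+ cells (C57BL/6, 12 weeks of age) received either scrambled RNA (Scr) or siRNA against Klf4 (siKlf4). According to the study's methods, the PDGFR-β+ cells were sorted by a fluorescent reporter from lungs of mice carrying Pdgfrb-CreERT2 and ROSA26R(Zs/+) and then passaged in culture, so they hold any lung cell in which the Pdgfrb promoter was active at induction. Both cell types had 50 nM RNA for 6 h, followed by 72 h of culture in SMC medium, and all libraries are therefore of cultured cells. The tables give TPM, a level per transcript that is corrected for gene length and library size.

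T-box proteins bind DNA through a shared domain and pattern organs by switching target genes on or off. In the embryonic lung, TBX2, TBX3, TBX4 and TBX5 are made in the mesenchyme, the tissue that surrounds the airway epithelium and gives rise to smooth muscle and fibroblasts. TBX4 and TBX5 are known as activators that act with the ligand FGF10 in lung budding, while TBX2 and TBX3 are known as repressors that keep mesenchyme dividing. TBX15 and TBX18 belong to a separate branch of the family known from skeletal, ureter and pericyte biology, and TBX20 is best known from the heart. TCF21 marks lipid-storing lung fibroblasts and restrains smooth muscle differentiation in several organs, and GATA6 is a regulator of smooth muscle and of lung epithelium.

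Knockdown of KLF4 lowered 1 of these genes in SMCs, Tcf21, and in PDGFR-β+ cells it raised Tbx2 and Tbx3 and lowered Tbx15. Tcf21 fell in SMCs from 15.4 ± 3.12 to 5.93 ± 2.45 TPM (mean ± SD, n = 3 per group). In PDGFR-β+ cells, Tbx2 rose from 1.22 ± 0.162 to 2.34 ± 0.150 TPM, Tbx3 rose from 12.8 ± 0.934 to 18.4 ± 1.82 TPM, and Tbx15 fell from 24.7 ± 0.588 to 17.5 ± 0.386 TPM. Tbx4, Tbx5, Tbx18, Tbx20 and Gata6 were not called in either cell type, where a call is a Benjamini-Hochberg adjusted p under 0.05 in limma, fitted to log2(TPM + 1) over all genes that averaged 1 TPM or more. Tbx20 was under that minimum in SMCs and was not tested there. Fold changes are differences of log2(TPM + 1), so those of genes near 1 TPM come out smaller than the ratio of their levels.

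Sequence upstream of a transcription start is shown for Tcf21, which had the largest fold change of the 9 genes in either test, and for Tbx20, whose SMC groups were well apart at a low level. KLF4 belongs to a family whose members recognise CACCC boxes, so the letters CACCC and their reverse complement GGGTG were searched in the 250 bases before the RefSeq start (GRCm38.p6), which the RefSeq table gives for 4 of the 9 genes (Tbx4, Tbx18, Tbx20 and Tcf21). Capitals mark a match. The Tcf21 sequence is chr10:22820175-22820393, reverse strand, the 219 bases of the window that lie outside the gene in the GENCODE annotation. The Tbx20 sequence is chr9:24774304-24774553, reverse strand.
Tcf21: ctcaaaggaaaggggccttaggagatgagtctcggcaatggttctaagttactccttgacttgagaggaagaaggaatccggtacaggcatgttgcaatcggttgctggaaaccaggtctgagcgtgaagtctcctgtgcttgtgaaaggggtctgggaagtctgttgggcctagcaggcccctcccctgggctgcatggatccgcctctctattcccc
Tbx20: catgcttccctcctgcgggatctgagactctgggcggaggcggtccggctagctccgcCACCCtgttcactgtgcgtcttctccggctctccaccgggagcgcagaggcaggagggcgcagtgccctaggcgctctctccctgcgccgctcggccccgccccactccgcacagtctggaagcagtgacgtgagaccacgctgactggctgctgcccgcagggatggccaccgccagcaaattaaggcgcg
The Tcf21 window held 0 matches. The Tbx20 window held 1 and the Tbx18 window 1, while that of Tbx4 held 2. The Tbx4 window (chr11:85896515-85896764) lies wholly inside the gene in the GENCODE annotation, so it is not upstream of the GENCODE start. Of 32851 mouse promoters of the same length, 52.0% held at least 1 match, so a match is common. These are matches of letters in a short window and say nothing of binding.

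The 9 genes lie on 6 chromosomes (GENCODE M21 on GRCm38, the mm10 build of the files). Tbx2 (chromosome 11, 85832551 to 85841948, forward strand) and Tbx4 (85886422 to 85916097, forward strand) are neighbours 44473 bp apart. Tbx3 (chromosome 5, 119670669 to 119684724, forward strand) and Tbx5 (119832668 to 119885219, forward strand) form a like pair, 147943 bp apart. Tbx18 (87702800 to 87731260) and Tbx20 (24718138 to 24774303) are both on the reverse strand of chromosome 9, far from each other. Tbx15 is on chromosome 3 (99240381 to 99354259, forward strand), Tcf21 on chromosome 10 (22817281 to 22820174, reverse strand) and Gata6 on chromosome 18 (11052064 to 11085635, forward strand). Genes on the opposite strand overlap 5 of the 9. The libraries keep strand, but whether the quantification used it is not given in the sources used here, so reads in the overlaps may be shared; the overlapping genes of Tbx15, Tbx18 and Tcf21 had at most 0.701 TPM in any library.

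The target itself matched the labels. In SMCs Klf4 had 89.6, 96.3 and 95.0 TPM under Scr, against 26.5, 16.3 and 18.8 TPM under siKlf4, so that 21.9% was left. In PDGFR-β+ cells it had 144, 146 and 134 TPM against 12.3, 13.8 and 12.8 TPM, with 9.16% left. Every library held 20590 to 21780 genes above 0, and read depth is unknown, since TPM keeps no totals. The SMC table names 1 Scr and 1 siKlf4 library differently from the others and without a replicate number; this pair is given first in each SMC list below and is called the unnumbered pair. The labels do not say that the numbered libraries came from separate animals, so p-values measure the spread between these libraries. In bulk RNA, fewer cells of a type and less RNA per cell cannot be told apart.

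The labelled cell types were compared with marker genes. Summed over 9 smooth muscle markers, the Scr libraries of SMCs had 1509 to 2299 TPM and those of PDGFR-β+ cells 5577 to 6428 TPM, so the cells labelled SMCs had the lower sum. Most of it came from Acta2 (1373 against 4369 TPM, SMCs first) and Tagln (425 against 1505 TPM). Smtn (59.5 against 62.3 TPM) and Lmod1 (49.1 against 57.0 TPM) were closer. Des (2.77 against 2.08 TPM) and Myocd had the higher mean in SMCs, and all other markers the lower one. Myocd, the cofactor that drives the smooth muscle program, was at 0.143 TPM in Scr SMCs and 0.0266 TPM in Scr PDGFR-β+ cells. Pdgfrb was at 447 ± 25.5 TPM in Scr PDGFR-β+ cells and at 214 ± 1.52 TPM in Scr SMCs. The 7 markers of PDGFR-β+ mesenchyme, which include it, summed to 2856 to 3544 TPM in Scr PDGFR-β+ cells and 3442 to 3563 TPM in Scr SMCs. Col1a1 and Cspg4 were also higher in PDGFR-β+ cells, whereas Pdgfra, Col3a1, Dcn and Lum were higher in SMCs. Epithelial markers summed to at most 1.22 TPM in any library, and Sftpc was at 0 throughout. Of 4 cardiomyocyte genes, which mark the tissue where Tbx20 is best known, Myh6 and Myl7 were at 0 in all 12 libraries, Tnnt2 had 1.40 TPM in Scr SMCs and 2.36 TPM in Scr PDGFR-β+ cells, and Nkx2-5 had 0 and 0.304 TPM.

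In Scr cells the 9 genes were ordered differently in the cell types. In SMCs Tbx4 was highest at 53.3 ± 3.51 TPM, followed by Gata6 at 38.2 ± 1.56 TPM, Tbx5 at 23.8 ± 1.17 TPM and Tbx15 at 23.4 ± 0.447 TPM. Tbx3 (20.6 ± 3.36 TPM), Tbx2 (18.0 ± 1.61 TPM) and Tcf21 (15.4 ± 3.12 TPM) came next, with Tbx18 at 8.86 ± 0.250 TPM and Tbx20 last at 0.490 ± 0.0442 TPM. Neighbours in this order whose libraries overlapped, and which therefore did not differ beyond their spread, were Tbx5 and Tbx15, Tbx3 and Tbx2, and Tbx2 and Tcf21. In PDGFR-β+ cells the order ran from Tbx15 at 24.7 ± 0.588 TPM through Gata6 at 22.6 ± 1.52 TPM, Tbx5 at 22.4 ± 1.82 TPM, Tbx3 at 12.8 ± 0.934 TPM, Tbx18 at 11.8 ± 0.972 TPM, Tbx4 at 5.45 ± 1.01 TPM and Tbx20 at 2.92 ± 0.185 TPM to Tbx2 at 1.22 ± 0.162 TPM and Tcf21 at 1.10 ± 0.0582 TPM. Here Gata6 and Tbx5, Tbx3 and Tbx18, and Tbx2 and Tcf21 overlapped. For scale, the median level of the tested genes was 20.8 TPM in Scr SMCs and 19.9 TPM in Scr PDGFR-β+ cells.

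The cell types were deposited in separate tables, so their levels are set side by side without a test. Mean Scr levels were 14.8 times as high in SMCs for Tbx2, 14.0 times for Tcf21 and 9.79 times for Tbx4. Gata6 and Tbx3 were 1.69 and 1.61 times as high in SMCs. Tbx20 ran the other way and was 5.97 times as high in PDGFR-β+ cells, at low levels in both. Tbx18 was 1.34 times and Tbx15 1.06 times as high in PDGFR-β+ cells, and the Tbx5 values overlapped. In the neighbouring pair Tbx2 and Tbx4, both genes were far lower in PDGFR-β+ cells, whereas in the pair Tbx3 and Tbx5 one gene was lower and the other overlapped. Scaling the libraries to a common median ratio left each ratio nearly as it was, for example 14.7 for Tbx2 and 5.99 for Tbx20.

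**Figure D1:**
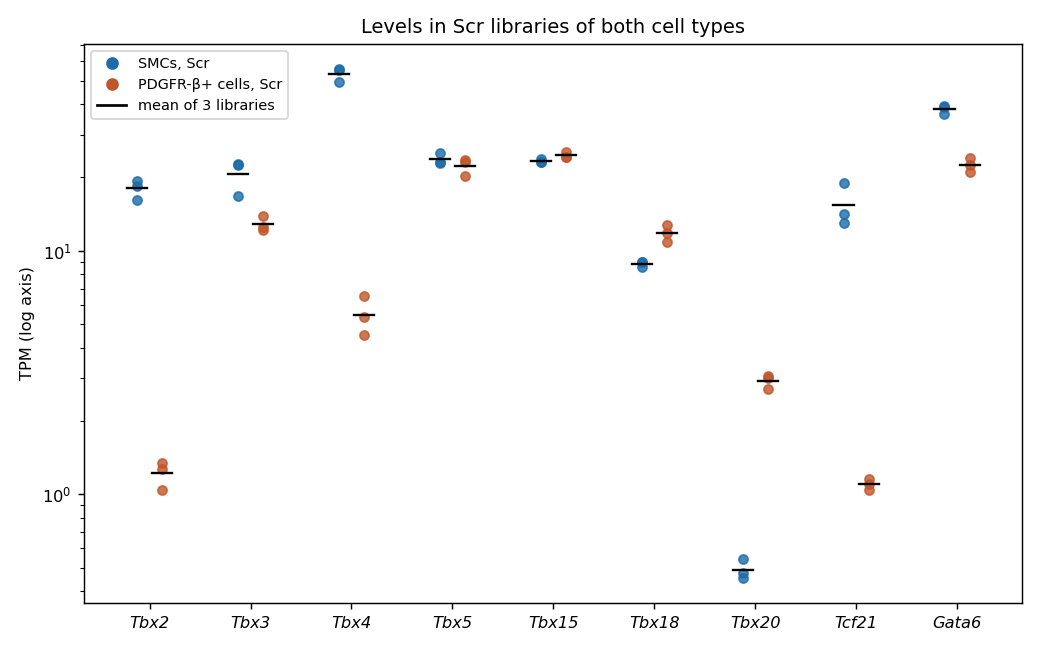
TPM on a log axis of each of the 9 genes in the 3 Scr libraries of SMCs (blue) and of PDGFR-β+ cells (orange); points are libraries and black bars are means. Tbx2, Tbx4 and Tcf21 sit well above in SMCs, Tbx20 in PDGFR-β+ cells, and Tbx5 overlaps.

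The first question was which of these genes respond to siKlf4 in SMCs. Of 8 genes tested, 0 were called higher and 1 lower. Over all 13709 genes tested in SMCs, 15.6% were called higher and 12.9% lower, so a share of 1 in 8 lower is near the background. The median log2 fold change of the 8 genes was -0.040, beside 0.017 over all genes, and their median absolute change was 0.12, beside 0.24. At an unadjusted p under 0.05, 5709 genes passed in this comparison.

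Tcf21, which restrains the contractile fate, was the gene that fell in SMCs. Its Scr libraries had 18.9, 14.2 and 13.0 TPM and its siKlf4 libraries 8.57, 3.73 and 5.50 TPM. The groups did not overlap, and 38.6% of the Scr level remained. The log2 fold change was -1.28 (SE 0.26, limma adjusted p = 0.0124). The fall was -1.06 in the unnumbered pair and -1.40 between the means of the numbered libraries, and leaving out any 1 library gave -1.54 to -1.04 with the call kept. In PDGFR-β+ cells Tcf21 was near 1 TPM, at 1.16, 1.04 and 1.11 TPM under Scr against 2.11, 0.924 and 0.930 TPM with siKlf4. The higher mean there came from a single siKlf4 library, replicate 1, and the test gave 0.11 (SE 0.22, adjusted p = 0.731), which was -0.12 without that library.

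Several measures moved with Tcf21 in the SMC libraries. The 9 smooth muscle markers summed to 1509 to 2299 TPM with Scr and to 3432 to 4204 TPM with siKlf4, and 7 of the 8 tested were called higher, among them Myh11, the smooth muscle myosin heavy chain, at 15.6 ± 0.380 against 49.2 ± 11.2 TPM. The 4 mesothelium markers summed to 17.0 to 26.7 TPM against 7.03 to 9.99 TPM, and both that were tested, Msln and Wt1, were called lower, Wt1 having passed the minimum level only through its Scr group. Markers of PDGFR-β+ mesenchyme summed to 3442 to 3563 TPM against 2541 to 2645 TPM, with 3 of 7 called lower. These were Col3a1 (1345 to 655 TPM), Cspg4 and Lum, while Pdgfrb, Pdgfra, Col1a1 and Dcn were not called. The RNA Gm42418, the transcript with the largest share in most libraries, took 1.80% to 3.23% of TPM with Scr and 4.44% to 5.77% with siKlf4. The part of these measures in the Tcf21 result was not tested.

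Tbx20, which acts in heart development, was the other gene with widely separated SMC groups. It had 0.455, 0.475 and 0.540 TPM under Scr, against 1.25, 1.14 and 1.11 TPM under siKlf4, a ratio of 2.38 at a low level. Its mean of 0.828 TPM kept it out of the test. With no filter on low values it was called higher (log2 fold change 0.54, SE 0.090, limma adjusted p = 0.0180). In PDGFR-β+ cells it had 3.01, 3.05 and 2.71 TPM under Scr, against 4.08, 3.89 and 3.09 TPM under siKlf4. These groups were also apart, and the change of 0.25 (SE 0.13, adjusted p = 0.172) was not called.

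**Figure D2:**
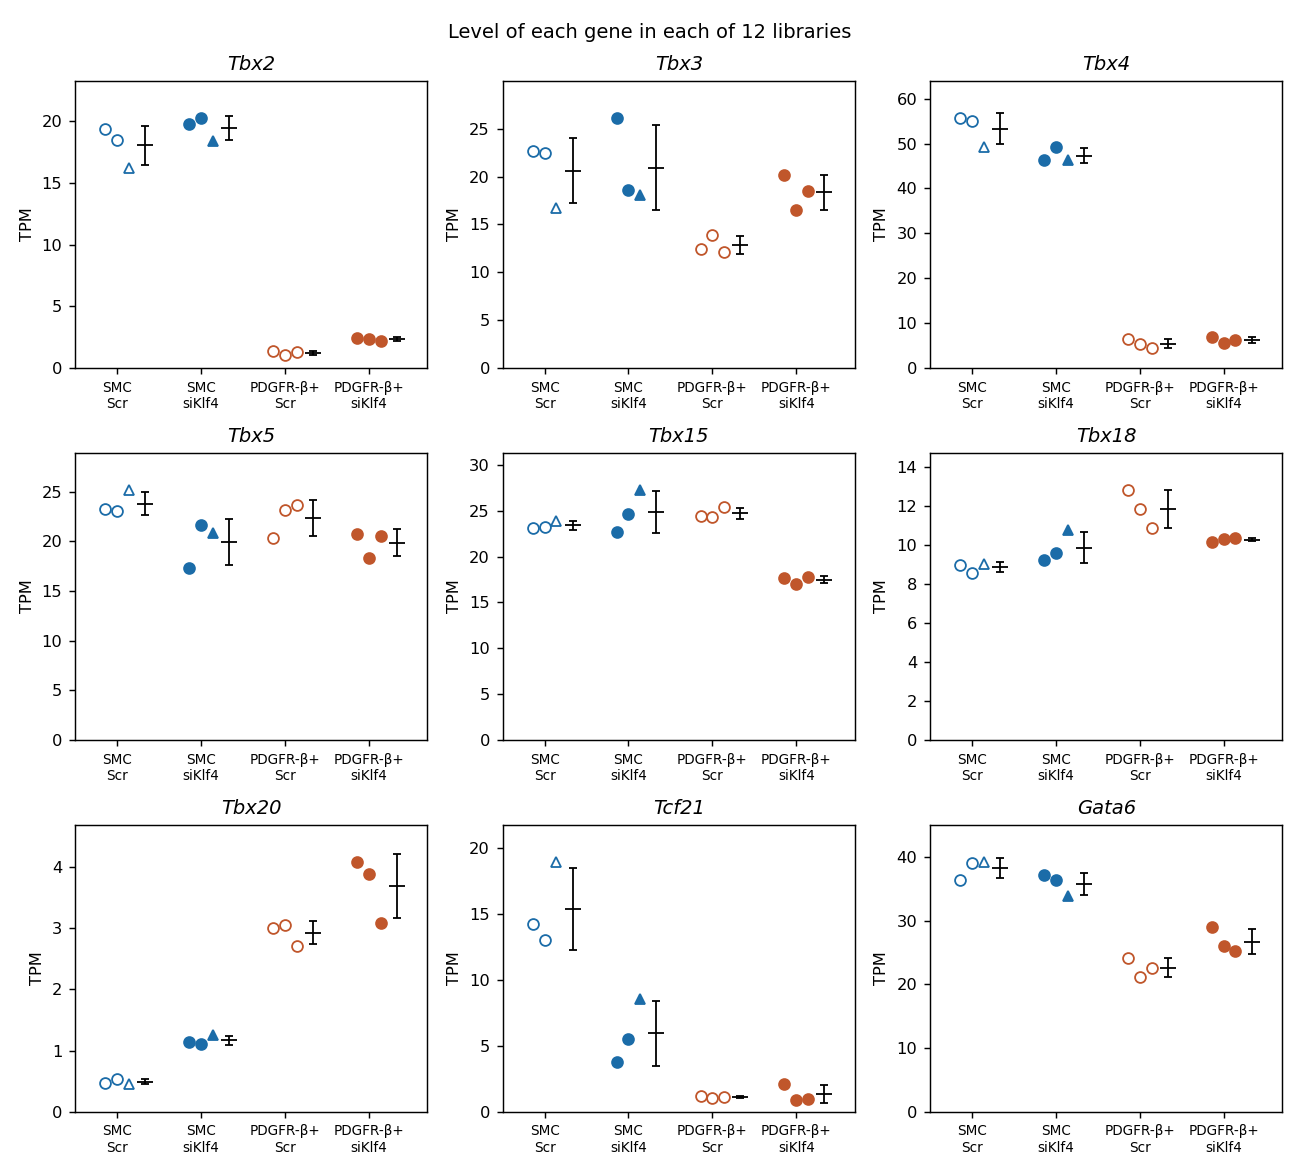
TPM of each gene in each of the 12 libraries, with open symbols for Scr and filled symbols for siKlf4, blue for SMCs and orange for PDGFR-β+ cells; triangles are the unnumbered pair and black marks are mean ± SD of 3 libraries. Tcf21 falls in SMCs, Tbx2 and Tbx3 rise and Tbx15 falls in PDGFR-β+ cells, and each vertical axis starts at 0.

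The lung-budding activators Tbx4 and Tbx5 had lower values with siKlf4 in SMCs without passing the test. Tbx4 had 49.3, 55.6 and 55.1 TPM under Scr, against 46.4, 46.4 and 49.2 TPM under siKlf4, groups that did not overlap by a narrow margin (log2 fold change -0.17, SE 0.076, adjusted p = 0.142). Tbx5 had 25.2, 23.2 and 23.0 TPM against 20.9, 17.3 and 21.6 TPM, also apart (-0.25, SE 0.10, adjusted p = 0.115). For Tbx5 the 95% interval of the change ran from -0.50 to -0.0046 and for Tbx4 from -0.35 to 0.012, so both intervals reach falls of those sizes. In PDGFR-β+ cells both sets overlapped, with Tbx4 at 4.50 to 6.50 TPM against 5.65 to 6.95 TPM (0.19, SE 0.14, adjusted p = 0.328) and Tbx5 at 20.3 to 23.7 TPM against 18.3 to 20.7 TPM (-0.16, SE 0.095, adjusted p = 0.204).

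Tbx2, Tbx3, Tbx15 and Tbx18 were not called in SMCs. Tbx2 had 16.2 to 19.3 TPM against 18.4 to 20.2 TPM (0.11, SE 0.095, adjusted p = 0.432). Tbx3 had 16.7 to 22.6 TPM against 18.1 to 26.1 TPM (0.014, SE 0.17, adjusted p = 0.960) and varied widely within both groups. Its opposite-strand neighbour Tbx3os1, which shares 697 bp with it, had means of 3.18 TPM with Scr and 1.13 TPM with siKlf4 in SMCs and 0.398 and 0.397 TPM in PDGFR-β+ cells. Tbx15 had 23.1 to 23.9 TPM against 22.7 to 27.2 TPM (0.079, SE 0.089, adjusted p = 0.533). Tbx18 had 8.57 to 9.03 TPM against 9.24 to 10.8 TPM, apart but within a small range (0.14, SE 0.097, adjusted p = 0.329). Groups did not overlap for 4 of the 8 tested genes (Tbx4, Tbx5, Tbx18 and Tcf21), beside 47.1% of all genes tested.

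The same question in PDGFR-β+ cells gave 2 genes called higher and 1 lower of 9. Over 13694 genes tested there, 25.3% were called higher and 15.3% lower, and 6876 passed at an unadjusted p under 0.05. The median log2 fold change was 0.19 over the 9 genes and 0.097 over all genes, and the median absolute changes were 0.23 and 0.29. A general shift bears on every change in these cells. Scaling the libraries to a common median ratio lowered the median of all genes by 0.11 on the log2 scale and turned 3461 genes higher and 2098 lower into 2639 higher and 2977 lower. Tbx2, Tbx3 and Tbx15 kept their calls and directions under this scaling and under quantile normalization.

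Tbx2 and Tbx3, the paired repressors, rose together in PDGFR-β+ cells. Tbx2 had 1.35, 1.04 and 1.27 TPM under Scr, against 2.46, 2.39 and 2.17 TPM under siKlf4. The groups were clearly apart and the ratio of means was 1.92, on a level that stayed far below that of SMCs. The log2 fold change was 0.59 (SE 0.14, adjusted p = 0.0123). Tbx3 had 12.5, 13.9 and 12.1 TPM against 20.1, 16.5 and 18.5 TPM, again apart, with a ratio of 1.43 (0.48, SE 0.10, adjusted p = 0.00863). The siKlf4 levels of Tbx3 in replicates 1 and 3 lay within the range of the SMC libraries of both treatments, 16.7 to 26.1 TPM. Replicate 2 was just below that range, and levels were not tested between the cell types. Leaving out any 1 library gave 0.53 to 0.63 for Tbx2 and 0.42 to 0.55 for Tbx3, all called.

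Tbx15 fell in PDGFR-β+ cells. It had 24.4, 24.4 and 25.4 TPM under Scr, against 17.6, 17.0 and 17.7 TPM under siKlf4, so the groups were far apart beside their spread. It was left at 70.6% of its Scr level (log2 fold change -0.48, SE 0.074, adjusted p = 0.00202). Its family relative Tbx18 had 12.8, 11.9 and 10.9 TPM against 10.2, 10.3 and 10.4 TPM, apart by less than 1 TPM. The change of -0.18 (SE 0.093, adjusted p = 0.152) was not called as deposited, but was called lower with median-ratio scaling (-0.29, adjusted p = 0.0294) and with quantile normalization (-0.32, adjusted p = 0.0197).

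Gata6 moved little in SMCs, with 39.2, 36.4 and 39.0 TPM against 33.8, 37.1 and 36.4 TPM (-0.093, SE 0.074, adjusted p = 0.381), and these groups overlapped. In PDGFR-β+ cells it had 24.1, 21.1 and 22.5 TPM under Scr, against 28.9, 26.0 and 25.2 TPM under siKlf4. These groups were apart, and the change of 0.23 (SE 0.090, 95% interval 0.021 to 0.44) missed the threshold with an adjusted p = 0.0764. It was called when both cell types shared 1 estimate of the spread (adjusted p = 0.0336). Under the scalings that remove the general shift the change was smaller and not called. It was 0.12 with median-ratio scaling (adjusted p = 0.241) and 0.14 with quantile normalization (adjusted p = 0.180). The opposite-strand RNA 1010001N08Rik, which shares 504 bp with Gata6, had means of 3.11 and 2.14 TPM in SMCs and 1.57 and 2.08 TPM in PDGFR-β+ cells, Scr before siKlf4. In all, groups did not overlap for 6 of 9 genes in PDGFR-β+ cells (Tbx2, Tbx3, Tbx15, Tbx18, Tbx20 and Gata6), beside 53.8% of all genes tested.

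Markers of other cells also moved in the PDGFR-β+ libraries. The 5 macrophage markers summed to 28.6 to 29.9 TPM with Scr and to 18.7 to 22.8 TPM with siKlf4. Of 3 tested, Lyz2 and Csf1r were called lower (Csf1r passed the minimum level only through its Scr group). Cd68 was not called and had the higher mean with siKlf4 (7.56 against 8.77 TPM). Ptprc, which was not tested, had 0.244 against 0.214 TPM. Adgre1, a defining macrophage gene, was at a mean of 0.0349 TPM with Scr and at 0 with siKlf4. The 4 mesothelium markers summed to 14.2 to 15.9 TPM against 3.08 to 3.34 TPM, with all 3 tested called lower. Of these, Msln (8.25 against 0.663 TPM) passed the minimum level only through its Scr group. Smooth muscle markers summed to 5577 to 6428 TPM against 4736 to 5039 TPM, with 3 of 8 called higher and 3 lower, of which Des passed the minimum level only through its Scr group. The part of these markers in the Tbx2, Tbx3 and Tbx15 results was not tested. The 4 endothelial markers summed to 15.2 to 18.4 TPM with Scr and to 14.0 to 16.0 TPM with siKlf4. Kdr made up most of this (15.3 against 12.5 TPM, adjusted p = 0.0715), Tek was called higher (1.33 against 2.55 TPM, adjusted p = 0.0212), and Pecam1 and Cdh5 had means of at most 0.153 TPM.

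**Figure D3:**
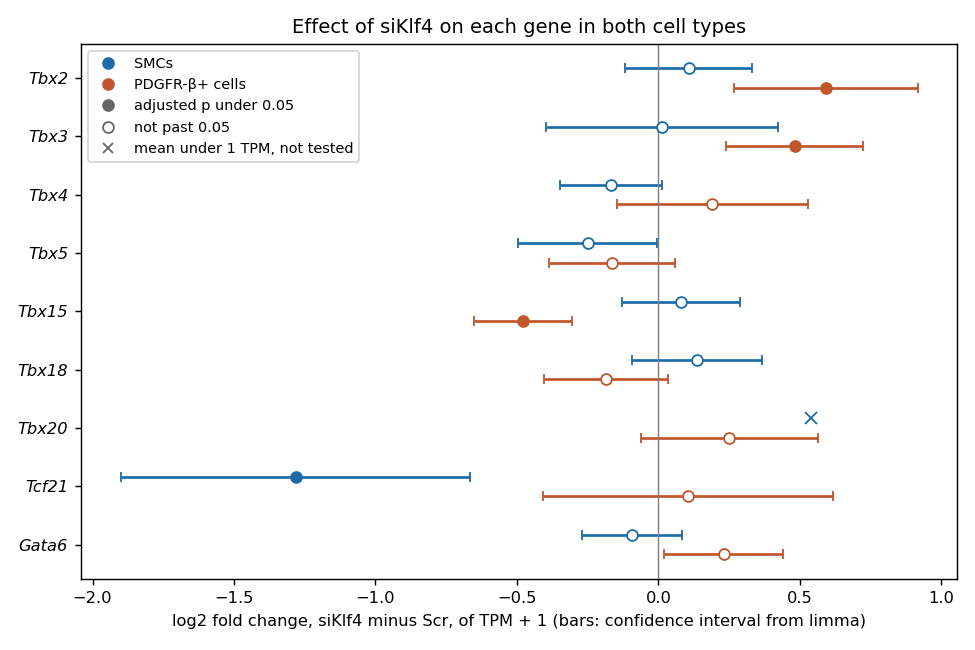
Log2 fold change of TPM + 1, siKlf4 minus Scr, for each gene in SMCs (blue) and PDGFR-β+ cells (orange), with 95% intervals from limma; filled points are called, open points are not, and the cross is Tbx20 in SMCs, which was under 1 TPM on average and not tested. Tcf21 in SMCs at -1.28 is the largest change, and Tbx2, Tbx3 and Tbx15 are called in PDGFR-β+ cells.

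Whether siKlf4 acted differently in the cell types was tested by an interaction term over all 12 libraries. A constant difference between the tables cancels in it only on the log2(TPM + 1) scale. A constant ratio of TPM does not fully cancel for genes near 1 TPM, such as Tbx2 and Tcf21 in Scr PDGFR-β+ cells. Of 8 genes tested in both, 4 differed, beside 33.0% of 13032 genes. The effect on Tcf21 was lower in SMCs than in PDGFR-β+ cells by a log2 difference of -1.39 (SE 0.36, adjusted p = 0.0121). The effect on Tbx2 was also lower in SMCs (-0.49, SE 0.14, adjusted p = 0.0225), and that on Tbx15 was higher (0.56, SE 0.11, adjusted p = 0.00212). With 0.1 in place of 1 added to TPM, the Tbx2 difference was -0.78 (adjusted p = 0.00637). The part of the low level in the Tbx2 and Tcf21 differences was not tested. Gata6, which was called in neither cell type alone, differed at the margin (-0.32, SE 0.11, adjusted p = 0.0432). The Tbx2 difference lost its call without Scr replicate 2 of the SMCs (-0.44, adjusted p = 0.0591) or without the unnumbered siKlf4 library (-0.45, adjusted p = 0.0521). The Gata6 difference lost it in 9 of the 12 fits that left out 1 library (-0.35 to -0.27 among those, adjusted p up to 0.0969).

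Tbx3 changed in PDGFR-β+ cells and not detectably in SMCs, but the difference itself was not called (-0.47, SE 0.21, adjusted p = 0.114). It was called without the unnumbered Scr library (-0.60, adjusted p = 0.0396) or without siKlf4 replicate 2 of the SMCs (-0.63, adjusted p = 0.0273). For Tbx18, which leaned up in SMCs and down in PDGFR-β+ cells, the difference was 0.32 (SE 0.12, adjusted p = 0.0663), and it was called in 5 of 22 alternatives, among them median-ratio scaling (0.41, adjusted p = 0.0185) and the fit without Scr replicate 3 of the PDGFR-β+ cells (0.38, adjusted p = 0.0420). Tbx4 gave -0.36 (SE 0.16, adjusted p = 0.109) and was called without Scr replicate 1 of the PDGFR-β+ cells (-0.47, adjusted p = 0.0304). For Tbx5 the difference was -0.086 (SE 0.14, adjusted p = 0.673), and its sign turned after median-ratio scaling (0.0083) and without siKlf4 replicate 2 of the SMCs (0.0087).

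Related genes were read from the same fits by lists of partners, ligands and targets. Over all genes tested, 15.6% were called higher and 12.9% lower in SMCs. In PDGFR-β+ cells the shares were 25.3% and 15.3%. These shares are the background for the counts of each list below, and the lists are short. Of 10 further T-box genes in the tables, 2 passed the minimum level in SMCs (Tbx6 and Mga) and 1 in PDGFR-β+ cells (Mga). Tbx6, a mesoderm gene, was called lower in SMCs, from 1.82 to 0.786 TPM (-0.66, adjusted p = 0.0237), a call lost when any 1 SMC library was left out (adjusted p up to 0.135). It passed the minimum level only through the Scr group, where it is high. Mga encodes a T-box protein that also binds MAX. It was at 32.0 to 42.5 TPM in the group means and was not called in either cell type. Of the other GATA genes, 0 of 2 tested were called in SMCs and 2 of 3 were called higher in PDGFR-β+ cells. Gata2 rose there from 32.5 to 50.4 TPM (0.62, adjusted p = 6.6e-04) and Gata3 from 2.61 to 6.76 TPM (1.12, adjusted p = 0.00222), and the effect on Gata2 differed between the cell types (-0.45, adjusted p = 0.00447). The FOG cofactors Zfpm1 and Zfpm2, which bind GATA proteins, were not called in either.

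Among the relatives of Tcf21 and the E proteins it pairs with, 0 of 3 tested were called in SMCs and 1 of 4 in PDGFR-β+ cells. That gene was Tcf3, which encodes the E2A proteins and rose from 47.9 to 64.6 TPM (0.42, adjusted p = 0.0115). The E proteins Tcf3, Tcf4 and Tcf12 were at 51.5, 71.1 and 61.5 TPM in Scr SMCs, where their changes ran from -0.020 to 0.070.

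Ligands made by lung mesenchyme split in PDGFR-β+ cells. Of 5 tested, 2 were higher and 2 lower. Fgf10, the budding ligand linked to Tbx4 and Tbx5, rose from 45.4 to 66.7 TPM (0.55, adjusted p = 0.00329) and Bmp4 from 13.4 to 18.2 TPM (0.41, adjusted p = 0.0181). The Bmp4 call was lost under both scalings and without Scr or siKlf4 replicate 1 (0.29 to 0.37, adjusted p up to 0.0618). Fgf7, a growth factor for epithelium, fell from 236 to 125 TPM (-0.92, adjusted p = 2.0e-04) and Wnt2, a ligand needed to specify lung, from 2.32 to 0.328 TPM (-1.31, adjusted p = 0.00102). Wnt2 was tested only because its Scr group lifted its mean over the minimum level. In SMCs 1 of 4 was called, Wnt5a, which rose from 12.4 to 22.7 TPM (0.81, adjusted p = 0.0242). It lost the call in 6 of 16 alternatives, among them those without the unnumbered Scr library, Scr replicate 3 or siKlf4 replicate 3 (0.61 to 0.81, adjusted p up to 0.130). The effects on Fgf7 differed between the cell types (1.09, adjusted p = 6.1e-05), while those on Fgf10 did not pass (-0.35, adjusted p = 0.0524).

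Hedgehog signalling is a route by which lung epithelium patterns mesenchyme. Its receptor Ptch1 (6.31 to 10.5 TPM, log2 fold change 0.65) and its effectors Gli2 (1.14 to 4.89 TPM, 1.46) and Gli3 (21.3 to 35.0 TPM, 0.69) were called higher in PDGFR-β+ cells, with adjusted p-values of 0.00366, 2.4e-04 and 6.7e-04, which is 3 of 4 tested. Smo was the fourth, at 0.22 with an adjusted p = 0.0952. In SMCs 1 of 5 was called, the inhibitor Hhip, which rose from 0.572 to 2.09 TPM (0.94, adjusted p = 0.0216) and lost its call without Scr replicate 2 or 3 or siKlf4 replicate 2 (0.71 to 1.11, adjusted p up to 0.0702). Hhip likewise passed the minimum level only through its siKlf4 group. All 4 genes tested in both cell types had a lower effect in SMCs by the interaction test.

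Genes held to be repressed by TBX2 and TBX3 were all called higher in PDGFR-β+ cells, 4 of 4 tested, beside 25.3% of all genes tested there. The cell cycle inhibitor Cdkn1a rose from 663 to 892 TPM (0.43, adjusted p = 0.00234), Cdkn1b from 29.9 to 38.3 TPM (0.35, adjusted p = 0.0317) and Cdkn2a from 119 to 179 TPM (0.59, adjusted p = 0.00205). The Cdkn1b call was lost in 9 of 14 alternatives, among them both scalings and 5 of the fits that left out a library (0.24 to 0.38, adjusted p up to 0.112). The WNT antagonist Frzb rose from 9.84 to 26.5 TPM (1.34, adjusted p = 4.2e-05). In SMCs, where Tbx2 and Tbx3 were not called, 1 of 4 was higher, beside 15.6% of all genes tested there. This was Cdkn1a, from 557 to 733 TPM (0.40, adjusted p = 0.00658). The median log2 fold change of the 4 was 0.51 in PDGFR-β+ cells, beside 0.097 over all genes, and -0.076 in SMCs, beside 0.017. Tbx2 and Tbx3 rose in PDGFR-β+ cells too, so they moved in the same direction as the genes they are held to repress, not the opposite one. A link between these changes was not tested.

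Of 7 other lung mesenchyme factors, Hoxa5 rose (58.7 to 74.5 TPM, 0.34, adjusted p = 0.0150) and Osr1 fell (342 to 191 TPM, -0.89, adjusted p = 0.0230) in SMCs. The Hoxa5 call was lost without Scr or siKlf4 replicate 3 (0.29 to 0.38, adjusted p up to 0.0578), and the Osr1 call without the unnumbered Scr library or either replicate 2 (-0.94 to -0.84, adjusted p up to 0.0652). In PDGFR-β+ cells Foxf1 rose (45.5 to 58.8 TPM, 0.36, adjusted p = 0.00503), as did Foxf2 (13.6 to 23.9 TPM, 0.78, adjusted p = 0.00387), of 6 tested. Osr1, like Tcf21 a marker of early mesenchyme, also differed between the cell types (-1.33, adjusted p = 0.0175).

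**Figure D4:**
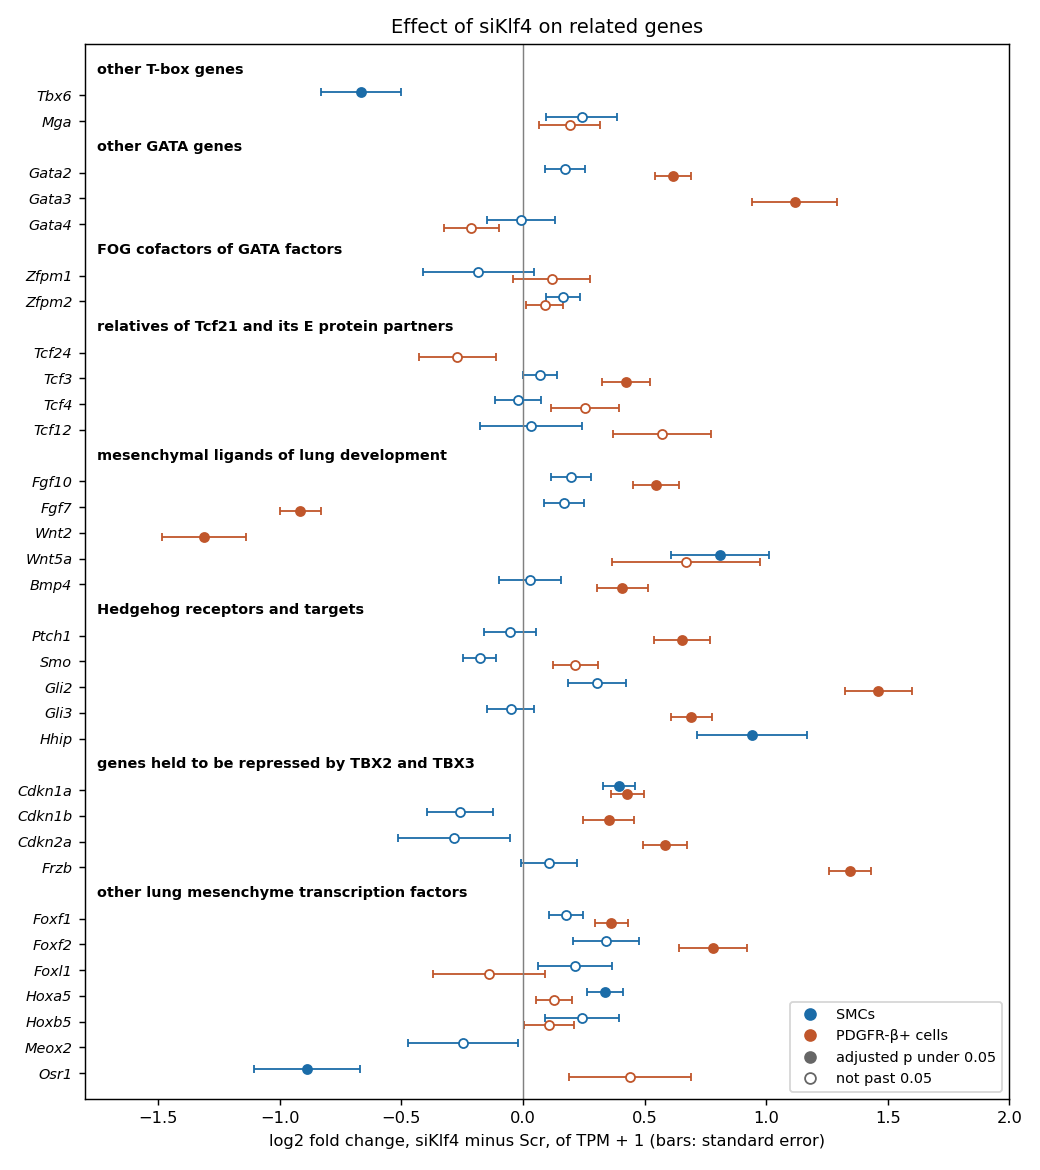
Log2 fold change of TPM + 1, siKlf4 minus Scr, with its standard error, for the tested genes of 8 lists in SMCs (blue) and PDGFR-β+ cells (orange); filled points are called. In PDGFR-β+ cells Gli2 at 1.46 and Frzb at 1.34 are the largest rises. Wnt2 at -1.31 is the largest fall, of a gene that was tested only through its Scr level.

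The genes whose levels followed each factor most closely over the 12 libraries were listed as a description. The libraries share a cell type in 2 sets of 6, which sets much of any such likeness. Pearson's r of log2(TPM + 1) with Tbx2 was 0.999 for Net1, 0.994 for Tspan11 and 0.994 for Tenm3. With Tbx4 it was 0.994 for Tsc22d3, 0.994 for Fkbp5 and 0.993 for Lgi2. With Tcf21 it was 0.989 for Sesn1, 0.989 for Ech1 and 0.987 for Srpx. Gata6 was followed by Msi1 (0.984), Lamb1 (0.982) and Cfb (0.982), and Tbx15 by Tmtc3 (0.976), Ube2j1 (0.974) and Wwtr1 (0.970). Tbx3 had Adamts7 (0.956), Sema4c (0.938) and Nectin2 (0.919), Tbx18 had Tpm2 (0.945), Ccdc6 (0.943) and Heatr3 (0.941), and Tbx5 had Tcfl5 (0.891), Tmod2 (0.834) and H3f3a (0.813).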

How the data were processed

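Total RNA of 12 libraries was measured by poly(A)-selected, strand-keeping RNA-seq. After trimming, the authors used HISAT2 for alignment to mm10 and StringTie for gene levels over GENCODE, and they deposited 1 table of TPM values per cell type. The versions of HISAT2 and StringTie are not given in the sources used here. DESeq2, which the authors ran on counts, was not used, since counts were not analysed here. A gene was tested where its mean over the 6 libraries of its table was at least 1 TPM. limma 3.58.1 (R 4.3.3, eBayes with trend) was fitted to log2(TPM + 1) of siKlf4 against Scr within each cell type, and an interaction term over 12 libraries was fitted to genes passing in both, with two-sided p-values adjusted by the Benjamini-Hochberg method over all genes tested. An exact permutation test of 3 against 3 cannot go below p = 0.1 and was not used. The fits were tested on simulated data.

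The 9 genes and the lists were chosen with earlier results of these data known. Named are all 9 genes, Klf4, each called member of the 8 gene lists, and the 3 genes most correlated with each of the 8 factors tested in both cell types. Cell type markers are given as sums and counts with examples, chosen after their values were seen. Levels between cell types come from separate tables and were not tested. Alternatives were a pseudocount of 0.1, no filter or a minimum of 5 TPM, median-ratio scaling, quantile normalization, no trend, a replicate block, a covariate for how SMC libraries were named or only the numbered ones, joint or separate fits, and leaving out each library. Promoter letters came from RefSeq and gene positions from GENCODE M21, in which 52403 table identifiers were found. The unnumbered SMC libraries were assigned to their group by column name.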

Additional observations from a re-analysis of the deposited data

Results flagged for a closer look

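SMCs and PDGFR-β+ cells differed in their response to siKlf4 for 4 of the 8 genes tested, beside 33.0% of 13032 genes. By the limma interaction term (SMCs minus PDGFR-β+ cells, 3 libraries per group) the log2 difference was -1.39 for Tcf21 (adjusted p = 0.0121), -0.49 for Tbx2 (adjusted p = 0.0225), 0.56 for Tbx15 (adjusted p = 0.00212) and -0.32 for Gata6 (adjusted p = 0.0432). Tcf21 and Tbx2 were near 1 TPM in Scr PDGFR-β+ cells, where the log2(TPM + 1) scale makes changes smaller than the ratio of levels. Tcf21 and Tbx15 kept the call in every alternative that tested them. Tbx2 lost it in 3 of 21, and Gata6 in 13 of 22, with adjusted p-values from 0.0512 to 0.127 in those 13, of which 9 left out a library.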

How the results depend on the processing

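Over 25 tested values of single genes and 425 alternatives, 390 kept direction and side of the threshold, 16 lost a call, 11 gained one and 8 changed sign, all 8 of values that were not called. Tcf21 in SMCs and Tbx2, Tbx3 and Tbx15 in PDGFR-β+ cells were called in each that tested them. Tbx3 in SMCs turned to -0.032 among the numbered libraries alone and with the replicate block, and ranged from -0.15 to 0.10 with 1 library left out. Tcf21 in PDGFR-β+ cells turned to -0.0041 with quantile normalization (-0.12 to 0.22 with 1 left out), and the Tbx5 difference to 0.0083 with median-ratio scaling (-0.14 to 0.0087). With no filter, 2 of the 9 genes were called in SMCs, the added one being Tbx20. With a minimum of 5 TPM, which left out Tbx2 and Tcf21, 2 differences between the cell types were called, and leaving out 1 library gave 2 to 5. All genes called in SMCs numbered 3910, and 2225 to 3569 with 1 library left out, the lowest without siKlf4 replicate 2, then 2350 without siKlf4 replicate 3 and 2546 without Scr replicate 2. The labels number replicates alike in Scr and siKlf4. Deviations of same-numbered PDGFR-β+ libraries correlated at 0.073, -0.016 and 0.0043, and those of other-numbered ones at -0.098 to 0.083. So few libraries cannot show whether the numbers mark pairs. In SMCs, which have 2 numbered pairs, the value was 0.11. With 2 pairs, other-numbered libraries give the same value with the sign turned, by construction. The replicate block also left out the unnumbered SMC pair. With it 2 differences were called (Tbx15 and Tcf21), beside 3 when only the numbered SMC libraries were used without a block. The genes called in SMCs were 2806, beside 3952 for the numbered libraries without a block. In PDGFR-β+ cells they were 5641, beside 5559 without the block. TPM keeps no read totals, so the counting error behind values near 1 TPM is unknown.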

Other observations

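In PDGFR-β+ cells the RNA Gm42418 took 3.48%, 4.96% and 6.33% of TPM in Scr replicates 1, 2 and 3 and 3.60%, 4.89% and 6.25% in siKlf4 replicates 1, 2 and 3. Each siKlf4 library was thus nearest to the Scr library of its own number for this 1 transcript. Over all genes, the deviations of same-numbered libraries correlated at -0.016 to 0.073, and whether the numbers mark pairs was not settled.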
